A study of Mus musculus with 72 samples.

Results

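The 24 h rhythm of gene expression in the liver of mice on a control diet was measured in 18 of the 72 RNA-seq libraries of the series. These are all liver libraries from mice on the control diet, 3 at each of 6 circadian times (CT, hours counted from subjective dawn in constant darkness). The 18 other liver libraries came from mice whose diet (MCD) lacked methionine and choline. They enter the filter on low counts, the scaling between libraries, the sex term of the test and the estimate of the spread, which all 36 liver libraries share. Where the 18 control libraries alone are named below as another setting, all of these came from them, and 18992 genes were tested. For each gene, the 24 h cosine and sine component was tested, and the range and the time of the peak of the fitted curve were computed.

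The mice were C57BL/6J by the protocol, with no engineered allele named, and were 8 to 12 weeks old when bought. Each was housed alone and ate the control diet, which matches the MCD diet in energy, freely for 11 days. The first 10 days had a cycle of 12 h of light and 12 h of darkness, and the last day was spent in constant darkness. Mice were killed every 4 h from CT00 to CT20 of that day, so the samples cover a single cycle, and each library came from the left liver lobe of 1 mouse. At each time 2 libraries came from males and 1 from a female. The protocol text speaks of males alone, and the sample labels were followed. Mice are active at night, so CT00 to CT12 is their rest phase and CT12 to CT24 their active phase.

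The clock of a liver cell is a transcriptional feedback loop. CLOCK, or its relative NPAS2, pairs with BMAL1 (the product of Arntl) at DNA elements called E-boxes and activates the Per and Cry genes, whose proteins then block this activation. The same pair activates the receptors REV-ERBα and REV-ERBβ (Nr1d1 and Nr1d2), which repress Arntl against the action of the ROR receptors, and the factors DBP, TEF and HLF, which act at D-boxes. In liver this loop, together with feeding and fasting, is known to time the metabolism of glucose, fat, bile acids and foreign compounds.

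The E-boxes and D-boxes that this loop acts through can be read in the promoters of its own genes, and 5 are shown, all of repressors, because they hold matches to these elements. The sequences run 5′ to 3′ from 250 bases before to 50 bases after the gene's start and are from RefSeq on build GRCm38.p6. Capitals mark matches to the E-box CACGTG, the E'-box CACGTT (printed as AACGTG where it lies on the other strand) or the D-box TTATGNAA, sought on both strands. The first is Nr1d1 (chr11:98775328-98775627, minus strand), which peaked at CT6.9 ± 0.24 h and has an E'-box 28 bases before its start. Then follow Ciart (chr3:95882179-95882478, minus strand, peak CT11.5 ± 0.33 h) with E-boxes 116, 58 and 44 bases before its start, and Per3 (chr4:151044616-151044915, minus strand, peak CT12.0 ± 0.45 h) with D-boxes at 205 and 158. Per1 (chr11:69098699-69098998, plus strand, peak CT13.3 ± 0.72 h) has an E-box at 166 and a D-box at 24, and Cry1 (chr10:85185005-85185304, minus strand, peak CT18.2 ± 0.43 h) an E'-box at 79 and an E-box at 60.
Nr1d1: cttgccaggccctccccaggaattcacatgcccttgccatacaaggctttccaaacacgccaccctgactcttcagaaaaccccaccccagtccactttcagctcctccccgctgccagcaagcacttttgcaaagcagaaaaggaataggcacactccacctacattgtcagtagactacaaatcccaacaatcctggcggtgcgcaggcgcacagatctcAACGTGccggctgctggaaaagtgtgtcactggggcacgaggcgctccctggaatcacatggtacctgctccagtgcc
Ciart: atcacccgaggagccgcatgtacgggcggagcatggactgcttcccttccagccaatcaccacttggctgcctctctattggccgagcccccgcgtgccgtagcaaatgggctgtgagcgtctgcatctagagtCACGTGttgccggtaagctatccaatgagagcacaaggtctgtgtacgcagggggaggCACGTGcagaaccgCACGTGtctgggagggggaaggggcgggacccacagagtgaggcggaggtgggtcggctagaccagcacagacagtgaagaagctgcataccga
Per3: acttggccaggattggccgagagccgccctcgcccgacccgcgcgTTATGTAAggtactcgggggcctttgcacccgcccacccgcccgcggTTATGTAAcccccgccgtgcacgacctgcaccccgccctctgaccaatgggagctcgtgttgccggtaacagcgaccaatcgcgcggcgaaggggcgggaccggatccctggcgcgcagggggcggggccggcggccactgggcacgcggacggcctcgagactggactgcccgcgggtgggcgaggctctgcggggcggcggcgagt
Per1: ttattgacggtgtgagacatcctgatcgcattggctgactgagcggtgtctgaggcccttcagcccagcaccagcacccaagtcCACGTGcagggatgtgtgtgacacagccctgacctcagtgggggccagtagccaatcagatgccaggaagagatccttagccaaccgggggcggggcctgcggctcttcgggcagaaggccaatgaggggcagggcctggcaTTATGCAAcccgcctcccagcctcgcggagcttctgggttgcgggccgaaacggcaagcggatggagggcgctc
Cry1: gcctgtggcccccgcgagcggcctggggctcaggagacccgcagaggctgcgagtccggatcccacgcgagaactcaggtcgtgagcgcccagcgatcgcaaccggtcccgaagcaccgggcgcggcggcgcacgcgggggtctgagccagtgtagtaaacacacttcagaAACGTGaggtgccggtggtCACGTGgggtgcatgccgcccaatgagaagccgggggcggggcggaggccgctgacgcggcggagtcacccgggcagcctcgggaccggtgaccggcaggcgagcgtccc
Of the 25 clock genes listed for this work, 20 have such a window in the table of promoters, and 11 of these hold at least 1 match to these or to the REV-ERB/ROR element (TAGGTCA or TGGGTCA) in the first window listed for the gene. Arntl has no match there, but it has a REV-ERB/ROR element in another window, from a different start. A match is a description of letters, not a measured binding site.

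Depth was high in every control library, with totals of 52.6 M to 86.2 M counts (median 61.4 M). Hepatocyte markers such as Alb and Ttr summed to 80650 to 121900 CPM (the count relative to the library total, scaled with TMM normalization factors), while macrophage markers summed to 273 to 644 CPM and lymphocyte markers to 1.92 to 10.4 CPM. Of 46 marker genes of 8 cell types that were tested, 1 was called rhythmic, against 17.8% of all genes tested. It was the bile duct and progenitor factor Sox9 (range 1.34 log2, peak CT21.8). In bulk tissue, fewer cells of a type and less RNA per cell cannot be told apart. The libraries fell into 2 kinds by the mitochondrial gene mt-Nd6, 8 with 76.5 to 119 CPM and 10 with 522 to 925 CPM, and each time held libraries of both. The low kind made up 2 of 3 libraries at CT12 and CT16 and 1 of 3 at the other times, so kind is not balanced over time. The control males at CT08 carry the same column name in the deposited table and are called here CT08 a, the deepest library, and CT08 b. CT08 a had the highest summed macrophage and lymphocyte markers of the 18 libraries. Its TMM factor was 1.178, against 0.8414 to 0.9859 in the other control libraries. The chi-square per degree of freedom of its counts against CT08 b was 612, while that between the males of other times was 39.5 to 153. Results are given with and without it.

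By edgeR's quasi-likelihood F test, 3611 of 20249 genes were rhythmic (17.8%) at a Benjamini-Hochberg adjusted p under 0.05. At an unadjusted p under 0.05 there were 6373. The range, which is the fitted peak minus the fitted trough on the log2 CPM scale, had a median of 0.66 log2 among called genes. It was at least 1 log2, a 2-fold swing, in 979 called genes (4.83% of those tested), which are called wide below, at least 2 log2 in 264 and at least 3 log2 in 93. Peaks lay in every part of the day. In windows of 4 h around CT00, CT04, CT08, CT12, CT16 and CT20 there were 606, 689, 524, 697, 598 and 497 called genes, of which 202, 169, 124, 168, 147 and 169 were wide. The standard error of the peak time had a median of 0.89 h.

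The spread of peaks over the windows rested on the scaling between libraries. TMM sets the typical gene level across libraries, and against library totals alone it moved the median gene by 0.02 to 0.20 log2 depending on the time, as a 24 h curve with a range of 0.12 log2 and a peak at CT17.6. Without CT08 a that curve had a range of 0.07 log2 and a peak at CT14.5. With library totals alone 3528 genes were called, with 1033 peaks around CT04, 773 around CT08, 571 around CT12, 302 around CT16 and 293 around CT20. Changes are therefore relative to the typical gene, and the split over the windows depends on this choice. Among the 124 called genes that the naming rule picks, 11 lost their call with library totals alone, namely Ccne2, Creld2, Dnajb9, Nadk, Ndufa8, Pdk4, Rpl27, Stat5a, Steap4, Tfeb and Tfrc.

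A term for library kind gave 3700 called genes, and of the named genes Creld2, Depp1, Klf10, Mcm6 and Tfeb lost their call. Within the 10 libraries of high mt-Nd6, 1611 genes were called, 1203 of them shared with the whole, and 55 of these 124 genes, Arntl and Alas1 among them, were not. Within the 8 libraries of low mt-Nd6, which leave 4 residual degrees of freedom, 0 genes were called and 2307 had an unadjusted p under 0.05. Peak times of the called genes lay within 2 h of their own for 3334 of 3600 genes in the high kind and 3284 of 3610 in the low kind.

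Values of single libraries are given below in the order first male, second male, female, with CT08 a first at CT08. Where 3 values follow a gene in parentheses, they are its range, its peak and its edgeR adjusted p. Among the clock's activators, 4 of 5 were called (80%, against 17.8% of all genes), all of them wide. Arntl, the gene of BMAL1, lay, in CPM, at 34, 34.4 and 34.1 at CT00, 23.9, 27.9 and 7.39 at CT04, 2.75, 2.43 and 0.966 at CT08, 2.23, 1.72 and 5.90 at CT12, 21.2, 24.8 and 23.9 at CT16 and 39.8, 32.3 and 36.6 at CT20. The lowest library at CT00 and CT20 was above the highest at CT08 and CT12, with no overlap. Its range was 4.55 ± 0.58 log2 with a peak at CT21.6 ± 0.48 h (edgeR adjusted p = 3.25e-08), a 23.5-fold swing. Npas2 lay, in CPM, at 26.8, 13.9 and 28.2 at CT00, 9.46, 11.7 and 3.06 at CT04, 0.237, 0.470 and 0.109 at CT08, 0.165, 0.176 and 0 at CT12, 0.524, 0.440 and 7.84 at CT16 and 8.31, 12.8 and 22.6 at CT20. It was near or at 0 in all 6 libraries of CT08 and CT12 and highest at CT00, with a peak at CT23.1 ± 0.41 h (adjusted p = 4.39e-07). A library at 0 makes its fitted range of 8.04 log2 depend on the prior count of 2, so no fold is given. Clock had a range of 1.37 ± 0.18 log2 and a peak at CT22.2 ± 0.49 h (adjusted p = 9.73e-07). Rora, which encodes a ROR receptor, was not called (range 0.38 ± 0.14 log2, adjusted p = 0.247).

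**Figure D1:**
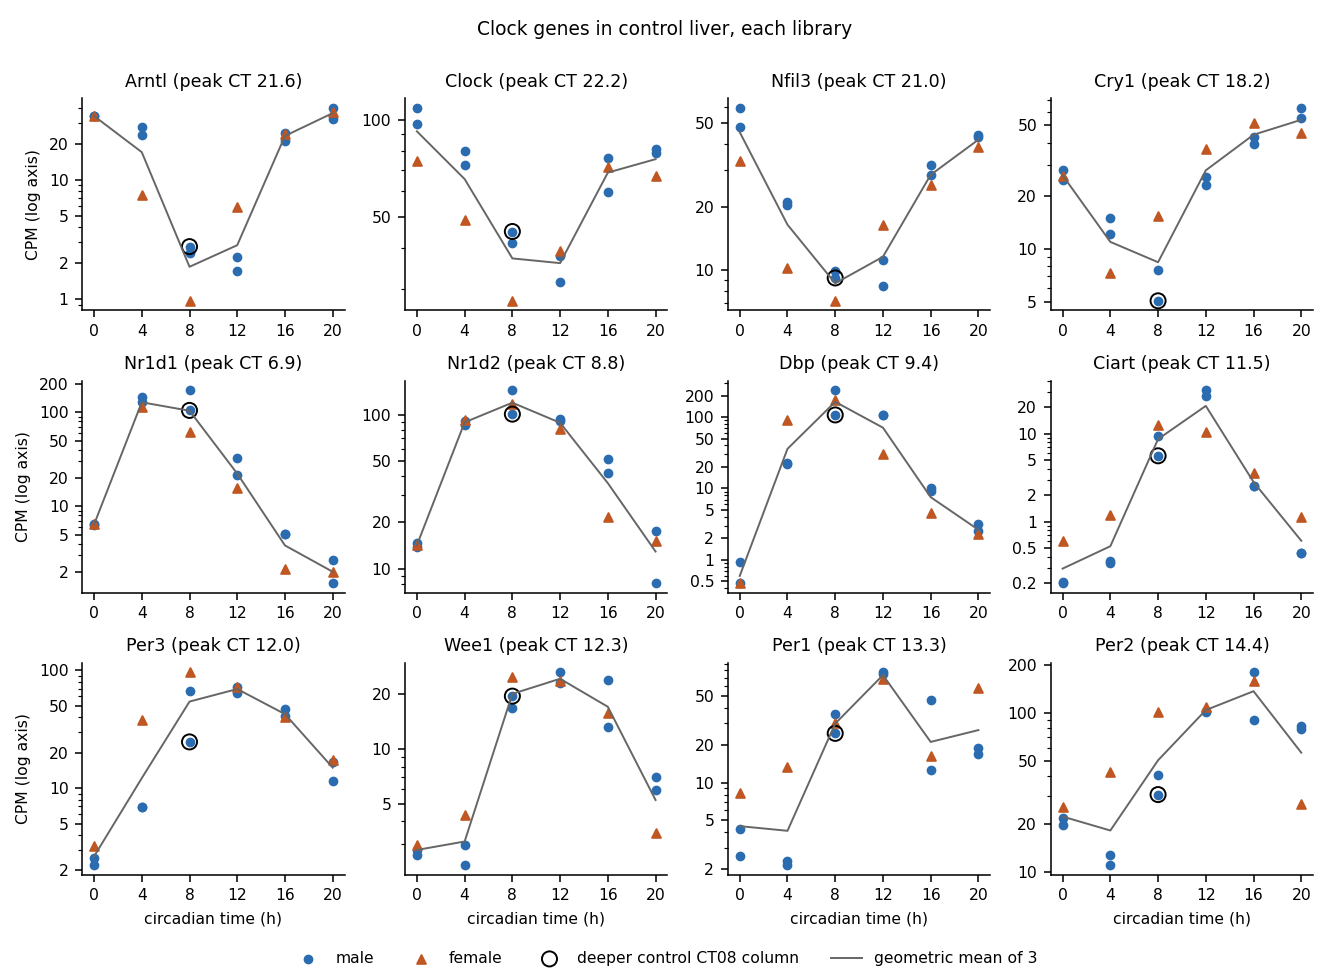
Level of 12 clock genes in each of the 18 control liver libraries, in CPM on a log axis, against circadian time in hours. Blue circles are males, orange triangles females, the ringed circle is the deeper CT08 column and lines join the geometric means of 3 libraries. Arntl and Clock are low at CT08 and CT12, where Nr1d2, Dbp and Per3 are high, and Per2 and Cry1 follow later.

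The repressors followed in a sequence, with 9 of 10 called (90%, against 17.8% of all genes) and 8 wide. The earliest was Nr1d1, which lay, in CPM, at 6.36, 6.40 and 6.40 at CT00, 144, 127 and 114 at CT04, 105, 172 and 62.1 at CT08, 21.6, 32.2 and 15.8 at CT12, 5.11, 5.04 and 2.17 at CT16 and 2.68, 1.53 and 1.97 at CT20. All 6 libraries of CT04 and CT08 were above all 12 of the other times, and the range was 6.35 ± 0.39 log2 (adjusted p = 7.17e-08), an 81.3-fold swing. Its relative Nr1d2 peaked later, at CT8.8 ± 0.35 h (range 3.53 ± 0.33 log2, adjusted p = 1.19e-09), as did Bhlhe41, a repressor that binds E-boxes, at CT9.2 ± 0.69 h (range 2.71 ± 0.49 log2, adjusted p = 0.000464). Its 15.9 CPM in CT08 b stood above 0.41 to 5.02 CPM in the 17 other libraries.

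Ciart, whose product represses CLOCK and BMAL1, lay, in CPM, at 0.209, 0.202 and 0.599 at CT00, 0.363, 0.339 and 1.20 at CT04, 5.63, 9.39 and 12.5 at CT08, 31.4, 27.3 and 10.5 at CT12, 2.52, 2.52 and 3.57 at CT16 and 0.447, 0.445 and 1.13 at CT20. The CT08 and CT12 libraries, at 5.63 to 31.4 CPM, did not overlap the others, at 0.20 to 3.57 CPM, and the range was 6.09 ± 0.52 log2 (adjusted p = 2e-08). The fitted peaks of the 3 Period genes came in the order Per3, Per1 and Per2. In the females fitted apart, Per2 (CT11.97 ± 0.98 h) came before Per1 (CT13.44 ± 2.76 h). Per3 had a range of 4.36 ± 0.52 log2 (adjusted p = 1.18e-07) and Per1 of 3.75 ± 0.71 log2 (adjusted p = 6.44e-05). Per2 lay, in CPM, at 19.8, 21.9 and 25.8 at CT00, 12.9, 11.1 and 42.8 at CT04, 30.7, 40.9 and 102 at CT08, 103, 101 and 108 at CT12, 179, 89.9 and 157 at CT16 and 79.3, 82.8 and 26.97 at CT20. Males were lowest at CT04 and females at CT00 and CT20, and the lowest library of CT12 and CT16, at 89.9 CPM, was below the female of CT08. Its range was 2.96 ± 0.43 log2 with a peak at CT14.4 ± 0.55 h (adjusted p = 0.000699).

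Of the Cryptochromes, Cry2 had a small range of 0.76 ± 0.24 log2 with a peak at CT13.5 ± 1.22 h (adjusted p = 0.00352), and was not called when a 24 h curve and a sex term alone were fitted to the 18 control libraries (0.0883). Cry1 was the last of the repressors, with 5.06, 7.58 and 15.3 CPM at CT08 against 62.7, 55 and 45.3 CPM at CT20, which do not overlap, and a range of 2.72 ± 0.30 log2 (adjusted p = 3.29e-07). Bhlhe40 was not called (range 1.29 ± 0.32 log2, adjusted p = 0.0568), but it was with limma-voom (0.036), DESeq2 (0.0146), the 18 control libraries alone (0.0356), and without CT04 3, CT08 b or CT20 2 (0.0194 to 0.0483). Its levels were 52.9, 78.4 and 197 CPM at CT04 and 248, 215 and 302 CPM at CT16, which do not overlap, with the female above both males at each of these times.

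Clock output factors pass the rhythm on to other genes. Of these, 9 of 10 were called (90%, against 17.8% of all genes), 8 of them wide and 7 with a peak around CT12. Dbp lay, in CPM, at 0.476, 0.929 and 0.479 at CT00, 23.01, 22.2 and 90.1 at CT04, 107, 238 and 172 at CT08, 108, 107 and 30.7 at CT12, 10.3, 9.15 and 4.57 at CT16 and 3.17, 2.51 and 2.31 at CT20. The 3 libraries of CT00 were the lowest of all 18 and those of CT08 lay at 107 to 238 CPM. The range was 7.46 ± 0.81 log2 with a peak at CT9.4 ± 0.41 h (adjusted p = 1.65e-09), a 176-fold swing. Tef (range 2.74 ± 0.27 log2, peak CT11.5 ± 0.38 h, adjusted p = 1.19e-09) and Hlf (1.19 ± 0.24 log2, CT13.0 ± 0.76 h, 0.0102), which bind the same D-box, peaked later. Nfil3, the repressor at D-boxes, lay on the opposite side of the day, at 9.21, 9.91 and 7.17 CPM at CT08 and 44.1, 42.96 and 38.5 CPM at CT20 with no overlap (range 2.52 ± 0.23 log2, peak CT21.0 ± 0.35 h, adjusted p = 5.07e-08).

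Wee1, a kinase that holds cells before mitosis, had the smallest adjusted p of the clock lists (1.19e-11, range 3.56 ± 0.32 log2, peak CT12.3 ± 0.34 h). It lay at 2.78, 2.61 and 2.94 CPM at CT00 and 23.2, 26.5 and 23.6 CPM at CT12, which do not overlap. Usp2, a deubiquitinase, had a range of 5.52 ± 0.59 log2 with a peak at CT12.9 ± 0.41 h (adjusted p = 7.17e-08). Noct had 3.98 ± 0.50 log2 and CT13.8 ± 0.48 h (adjusted p = 1.4e-05), and the nutrient-responsive factor Klf15 0.85 ± 0.20 log2 and CT12.1 ± 0.92 h (adjusted p = 0.000421). Klf10 was at the threshold (range 1.43 ± 0.44 log2, adjusted p = 0.0474) and lost its call without any of 14 of the 18 control libraries, with adjusted p up to 0.136. The other 21 called clock genes kept theirs whichever control library was left out. Klf9 was not called (range 0.65 ± 0.30 log2, adjusted p = 0.212), but it was within the high kind of library (0.039). Of the kinases and ubiquitin ligases that set the life of clock proteins, 2 of 9 were called (22.2%, near the 17.8% of all genes), the ligase subunits Fbxl21 (range 1.15 ± 0.29 log2, peak CT3.4 ± 0.97 h) and Btrc (0.34 ± 0.12 log2, CT4.4 ± 1.39 h). Btrc lost its call without any of 9 libraries (adjusted p up to 0.0999), and the list's count was 4 with library totals alone, 3 with DESeq2 or a term for library kind and 1 with the 18 control libraries alone or without CT00 1, CT04 1, CT08 a, CT08 b, CT16 1 or CT20 1.

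**Figure D2:**
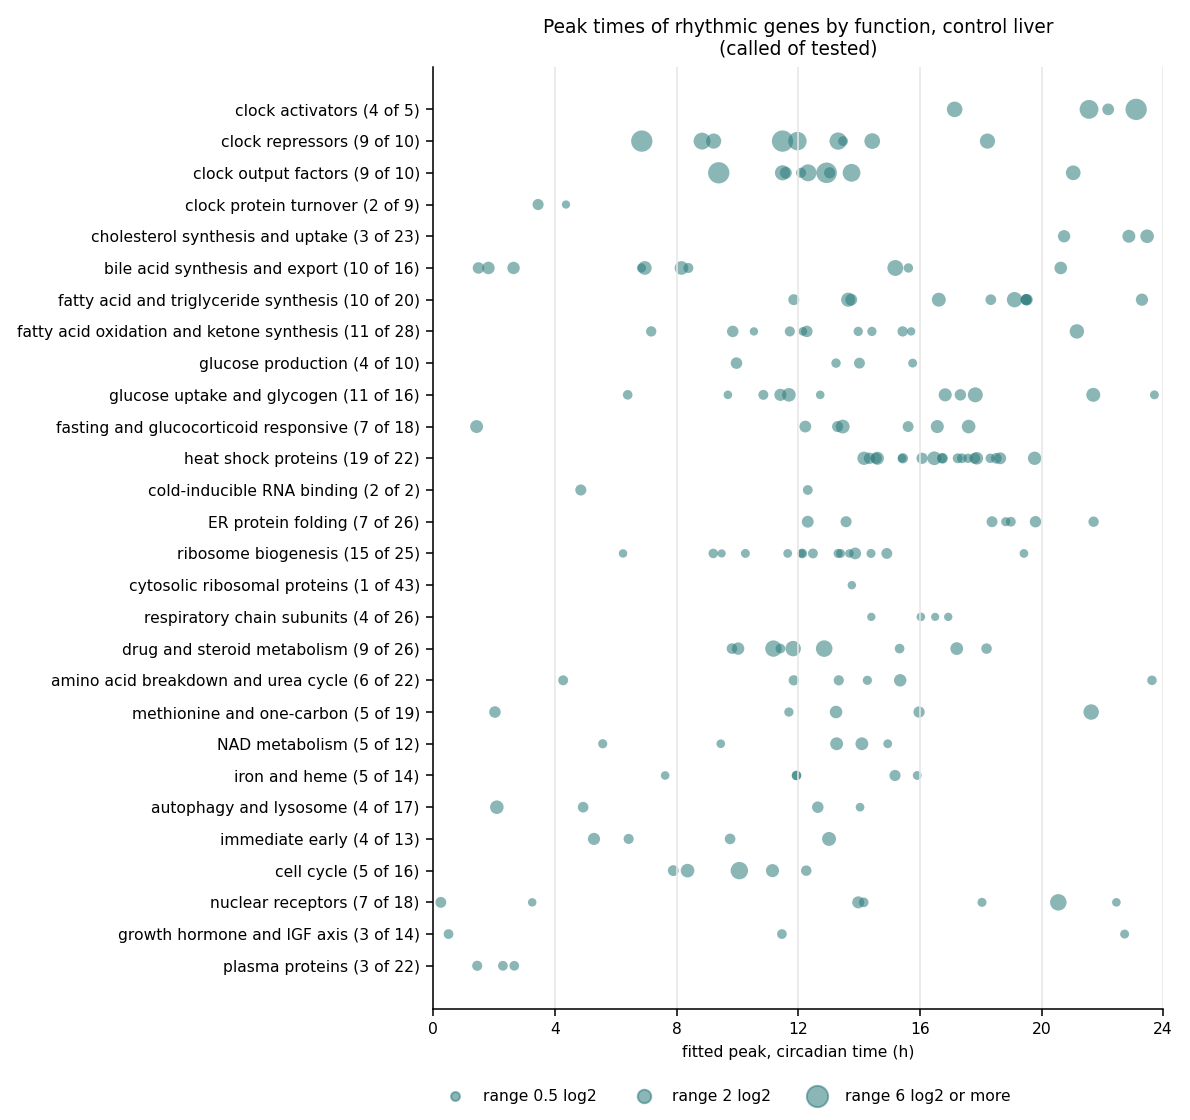
Fitted peak time in hours of every rhythmic gene in the 28 function lists. Each point is 1 gene, its size grows with the range in log2, and the label gives the called of the tested genes. Heat shock genes lie between CT14.2 and CT19.8, fibrinogen genes (plasma proteins) between CT1.44 and CT2.66, and bile acid genes are spread over the day.

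In the lists that follow, shares of called genes are to be read against the 17.8% of all genes. Early in the rest phase the transcripts of fibrinogen, the clotting protein made by hepatocytes, were at their peak. Fgg lay at 3791, 3967 and 3649 CPM at CT00, 3904, 4077 and 3633 CPM at CT04 and 2234, 2204 and 2139 CPM at CT16. The libraries of CT00 and CT04 did not overlap those of CT16, and the range was 0.85 ± 0.13 log2 with a peak at CT1.4 ± 0.57 h (adjusted p = 0.000275). Fga (0.74 ± 0.11 log2, CT2.3 ± 0.59 h, 0.000542) and Fgb (0.72 ± 0.11 log2, CT2.7 ± 0.60 h, 0.00107), which encode the other chains, peaked close by. These were the 3 called of 22 plasma protein genes (13.6%, against 17.8% of all genes). The count was 5 with library totals alone, and the 19 others, among them Alb (range 0.25 log2, adjusted p = 0.54), had adjusted p of 0.19 or more.

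Of 23 genes of cholesterol synthesis and uptake, 3 were called, 13.0% against 17.8% of all genes, and all 3 peaked from CT20.7 to CT23.5. Hmgcs1, which makes the precursor of mevalonate, lay, in CPM, at 435, 192 and 589 at CT00, 359.6, 325 and 426 at CT04, 109, 112 and 308 at CT08, 54.4, 74.5 and 126 at CT12, 212, 265 and 243 at CT16 and 248, 343 and 453 at CT20. The mean was lowest at CT12, and most other times overlapped (range 2.06 ± 0.35 log2, peak CT23.5 ± 0.65 h, adjusted p = 0.0103). Insig2, which retains the sterol sensor in the endoplasmic reticulum, had a range of 1.81 ± 0.28 log2 with a peak at CT22.9 ± 0.59 h (adjusted p = 3.01e-06), and Pmvk, a mevalonate pathway kinase, of 1.57 ± 0.32 log2 and CT20.7 ± 0.79 h (adjusted p = 0.0155). The list's count was 12 with the 18 control libraries alone, 6 with library totals or DESeq2, 7 without CT08 3 and 5 without CT00 2.

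Of 16 genes of bile acid synthesis and export 10 were called (62.5%), 7 of them wide, with peaks from CT1.48 to CT20.6. Abcg5 and Abcg8 encode the partners of a sterol exporter. Abcg5 lay, in CPM, at 51.2, 38.4 and 83.4 at CT00, 88.9, 87.9 and 119.5 at CT04, 64.9, 159 and 152 at CT08, 148, 121 and 117 at CT12, 41.9, 37.2 and 63.5 at CT16 and 22.7, 18.4 and 61.6 at CT20. Libraries of CT04 (87.9 to 120 CPM) and CT12 (117 to 148 CPM) did not overlap those of CT16 and CT20 (18.4 to 63.5 CPM), while at CT08 the deeper column was the low value. The ranges were 2.09 ± 0.31 log2 with a peak at CT8.2 ± 0.57 h (adjusted p = 0.000198) and 2.12 ± 0.34 log2 with a peak at CT7.0 ± 0.61 h (adjusted p = 0.00039). The pair overlaps on opposite strands, so their values are uncertain.

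Cyp7a1, the rate-limiting enzyme of bile acid synthesis, lay, in CPM, at 35.6, 135 and 90.7 at CT00, 10.7, 16.3 and 33.2 at CT04, 86.7, 20.1 and 503 at CT08, 209, 230.0 and 394 at CT12, 96.7, 198 and 246 at CT16 and 129, 177 and 167 at CT20. The mean was lowest at CT04, and at CT08 the libraries ran from 20.1 CPM in male b to 503 CPM in the female. Its range was 3.06 ± 0.73 log2 with a peak at CT15.2 ± 0.91 h (adjusted p = 0.0109). Cyp8b1, which sets the share of cholic acid, peaked later at CT20.6 ± 0.68 h (range 1.68 ± 0.30 log2, adjusted p = 0.0188). Without CT08 a its range was 1.40 log2 and its adjusted p 0.0658, so the call rests on that library. The bile salt exporter Abcb11 (range 1.30 log2) and the synthesis gene Hsd3b7 (1.65 log2) peaked at CT1.5 and CT1.8.

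Of 26 genes of drug and steroid metabolism and its heme supply 9 were called (34.6%), 5 of them wide and 5 with a peak around CT12, the start of the active phase. Alas1, which starts heme synthesis for cytochromes P450, lay, in CPM, at 111, 255 and 136 at CT00, 26.99, 30.4 and 90.4 at CT04, 245, 187 and 717 at CT08, 1457, 784 and 824 at CT12, 225, 459 and 316 at CT16 and 86.4, 66.8 and 188 at CT20. The 3 libraries of CT12 were above all 15 others and those of CT04 were among the lowest. Its range was 3.37 ± 0.72 log2 with a peak at CT12.8 ± 0.82 h (adjusted p = 2.49e-05), a 10.3-fold swing. Por, which passes electrons to the cytochromes, lay, in CPM, at 82.1, 81.4 and 166 at CT00, 96.1, 68.1 and 241 at CT04, 299.6, 255 and 555 at CT08, 1012, 604 and 676 at CT12, 255, 234 and 386 at CT16 and 99.7, 76.4 and 241 at CT20. The CT12 libraries were again above all others (range 2.83 ± 0.31 log2, peak CT11.8 ± 0.42 h, adjusted p = 9e-07). Cyp2a5 had a range of 3.29 ± 0.27 log2 with a peak at CT11.2 ± 0.31 h (adjusted p = 2e-05), and was higher in the female than in both males at every time. Ces1d, a carboxylesterase, peaked later at CT17.2 ± 0.78 h (range 1.75 ± 0.35 log2, adjusted p = 0.00463).

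**Figure D3:**
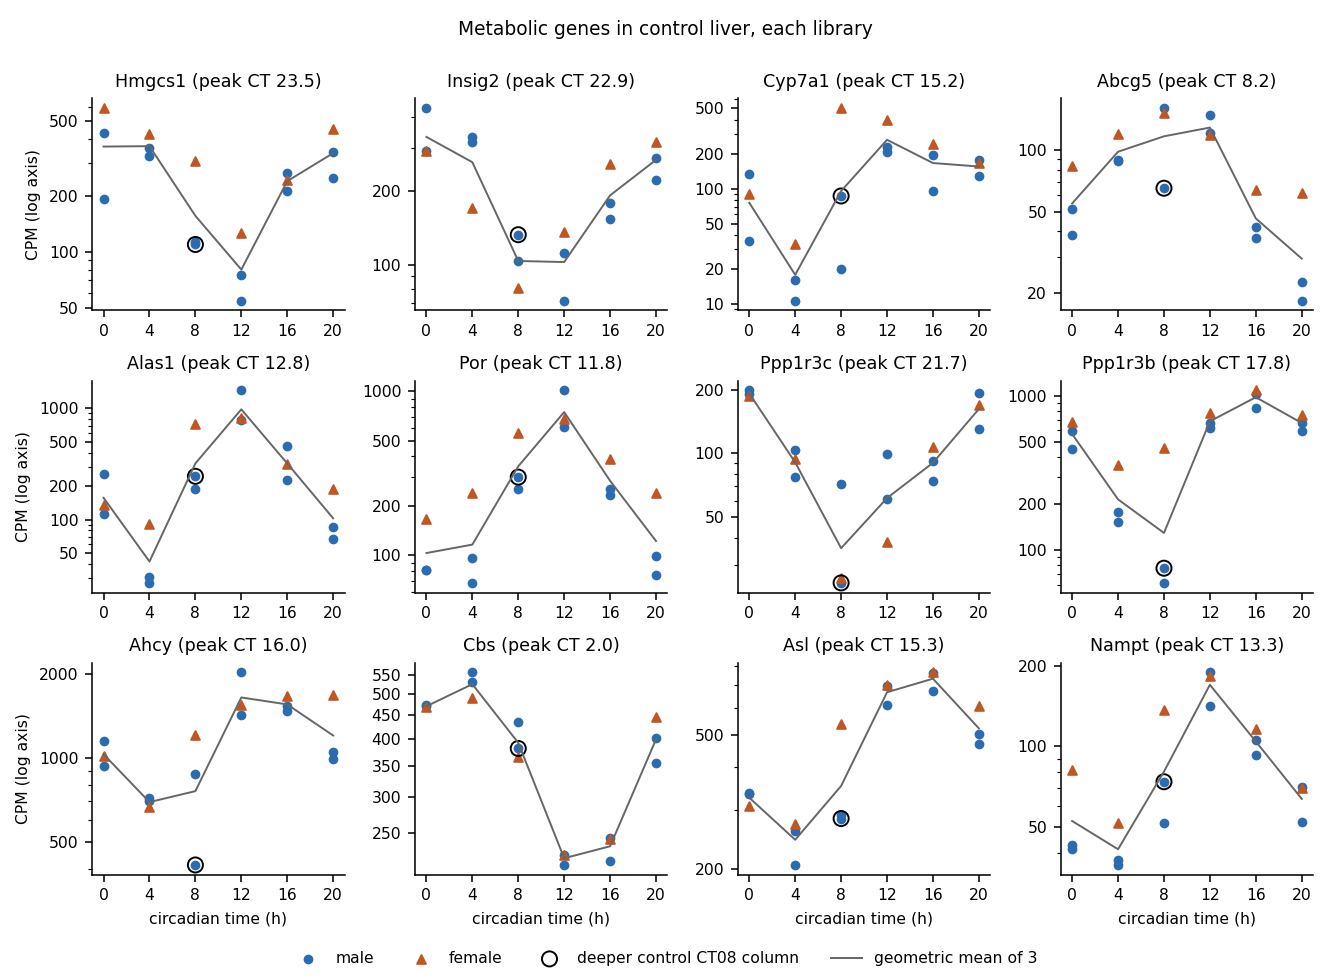
Level of 12 metabolic genes in each of the 18 control liver libraries, in CPM on a log axis, against circadian time in hours, with the symbols of the clock gene plot. Alas1, Por and Nampt have their 3 highest group means at CT08, CT12 and CT16, Ppp1r3b is highest at CT16, and Hmgcs1 and Insig2 are lowest at CT12 or CT08.

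In NAD metabolism 5 of 12 genes were called (41.7%), with peaks around CT04, CT08, CT12 and, in 2 cases, CT16. Nampt, the rate-limiting enzyme of NAD salvage, lay, in CPM, at 43.1, 41.6 and 81.7 at CT00, 37.7, 36.1 and 51.96 at CT04, 73.8, 51.9 and 136 at CT08, 189, 142 and 183 at CT12, 92.9, 106 and 116 at CT16 and 70.8, 52.2 and 70.1 at CT20. The CT12 libraries, from 142 CPM upward, were above all others, of which the female at CT08 came closest with 136 CPM. Its range was 1.78 ± 0.24 log2 with a peak at CT13.3 ± 0.52 h (adjusted p = 8.52e-07). The riboside kinase gene Nmrk1 had 1.76 ± 0.24 log2 and CT14.1 ± 0.51 h (adjusted p = 9.01e-07), and the NAD kinase gene Nadk 0.48 ± 0.07 log2 and CT14.9 ± 0.58 h (adjusted p = 0.000543). Nmnat3, the gene of a mitochondrial enzyme of NAD synthesis, peaked early, at CT5.6 ± 1.04 h (range 0.57 ± 0.16 log2, adjusted p = 0.0284), and lost its call without any of 6 libraries (adjusted p up to 0.0872).

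Ribosome biogenesis, the making of ribosomes in the nucleolus, had 15 of 25 genes called (60%), 9 of them with a peak around CT12 and 2 of them wide. The timing moved with the kind of library, with a mean peak of the called genes at CT10.8 within the low kind and CT14.7 within the high kind. Rrp12 (range 1.37 ± 0.36 log2, peak CT13.9 ± 0.99 h, adjusted p = 0.00484) and Nolc1 (1.08 ± 0.34 log2, CT14.9 ± 1.21 h, 0.00943) were the wide members. The peak of Rrp12 was CT11.6 ± 0.16 h in the low and CT16.5 ± 0.98 h in the high kind, and that of Nolc1 CT12.5 ± 1.06 h and CT16.9 ± 1.46 h. Polr1a, the large subunit of RNA polymerase I, had a range of 0.76 ± 0.21 log2 with a peak at CT12.5 ± 1.04 h (adjusted p = 0.00159) and lay at 48.2, 40.6 and 42 CPM at CT12, above all 15 other libraries. Nop56, a nucleolar protein gene, had 0.72 ± 0.21 log2 and CT12.1 ± 1.09 h (adjusted p = 0.00727). With library totals alone 8 of the 25 were called. Of the genes of the ribosome's own proteins 1 of 43 was called (2.33%, against 17.8% of all genes), Rpl27 (range 0.38 ± 0.08 log2, peak CT13.8 ± 0.79 h, adjusted p = 0.0053). That count was 4 with DESeq2, 3 without CT08 a or CT04 3 and 2 without CT04 1 or CT08 3 or with a term for library kind, and Rpl27 was not called with library totals alone (adjusted p = 0.0902).

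Of 28 genes of fatty acid oxidation and ketone synthesis 11 were called (39.3%), 3 of them wide, and 5 peaked around CT12. Cpt1a, the gate of fatty acids into mitochondria, had a range of 1.28 ± 0.22 log2 with a peak at CT9.8 ± 0.66 h (adjusted p = 3.43e-05), Acot4, a thioesterase, 1.27 ± 0.26 log2 and CT12.3 ± 0.79 h (adjusted p = 0.0126), and Ppara, the receptor that drives the pathway, 0.83 log2 and CT11.7 (adjusted p = 0.00568). Pdk4, which keeps pyruvate out of the citrate cycle, peaked apart from them at CT21.2 ± 0.93 h (range 2.41 ± 0.58 log2, adjusted p = 0.0284). Acaa1b, a peroxisomal thiolase, had 0.91 ± 0.23 log2 and CT15.4 ± 0.97 h (adjusted p = 0.0215). The calls of Pdk4 and Acaa1b were lost without any of 6 and any of 3 libraries (adjusted p up to 0.0831 and 0.101), and the list's count was 7 without CT04 1, CT04 2, CT12 1, CT12 2 or CT20 2.

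Of 20 genes of fatty acid and triglyceride synthesis 10 were called (50%), 9 of them wide and 5 with a peak around CT20. Lpin1, a phosphatidate phosphatase, was 1 of 3 called genes with a peak around CT12, at CT13.6 ± 1.06 h, and lay, in CPM, at 69.7, 48.3 and 89.1 at CT00, 84.5, 85.9 and 109 at CT04, 57.4, 92.6 and 243 at CT08, 979, 586 and 422 at CT12, 138, 278 and 90.8 at CT16 and 195, 168 and 275 at CT20. The CT12 libraries, at 422 to 979 CPM, were above all others (range 2.28 ± 0.63 log2, adjusted p = 0.00103). Pnpla3, a lipase of lipid droplets, had a range of 2.79 ± 0.82 log2 with a peak at CT19.1 ± 1.12 h (adjusted p = 0.00956), and the female was above both males at every time. The elongase gene Elovl6 lay at 126, 169.8 and 1263 CPM at CT08 and 1704, 1309 and 2179 CPM at CT16, which do not overlap, though the female was close (range 2.19 ± 0.49 log2, peak CT16.6 ± 0.85 h, adjusted p = 0.029). Elovl5, which elongates polyunsaturated fatty acids, peaked at CT23.3 ± 0.66 h (range 1.54 ± 0.27 log2, adjusted p = 1.2e-05). Elovl6 lost its call without CT04 1, CT04 2, CT16 1 or CT16 3 (adjusted p 0.0519 to 0.099). The list's count was 17 with the 18 control libraries alone, 15 with DESeq2 and 16 without CT08 3.

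Glucose handling was among the most rhythmic functions, with 11 of 16 genes of glucose uptake and glycogen called (68.8%) and 6 wide. Ppp1r3b, which brings a phosphatase to glycogen synthase, lay, in CPM, at 588, 452 and 681 at CT00, 153, 178 and 358 at CT04, 76.6, 61.5 and 462 at CT08, 616, 666 and 778 at CT12, 1030.0, 836 and 1087 at CT16 and 664, 592 and 754 at CT20. Both males at CT08 were the lowest of all libraries, while the female of that time, at 462 CPM, lay within the males' CT00 values. Its range was 2.64 ± 0.48 log2 with a peak at CT17.8 ± 0.69 h (adjusted p = 0.00418).

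A related glycogen targeting gene, Ppp1r3c, peaked at CT21.7 ± 0.59 h (range 2.21 ± 0.34 log2, adjusted p = 0.00145), and Gys2, glycogen synthase itself, at CT11.4 (range 1.51 log2, adjusted p = 3.69e-06). Pfkfb3, which makes an activator of glycolysis, lay at 103, 73.7 and 16.9 CPM at CT12, where both males stood above all other libraries and the female did not (range 2.06 ± 0.64 log2, peak CT11.7 ± 1.18 h, adjusted p = 0.00148). These males are of the low mt-Nd6 kind and this female of the high kind. The range of Pfkfb3 was 2.8 ± 1.3 log2 within the low kind and 0.9 ± 0.7 log2 within the high kind. In glucose production 4 of 10 genes were called (40%). Slc37a4, the glucose-6-phosphate transporter, had a range of 1.09 ± 0.19 log2 with a peak at CT14.0 ± 0.68 h (adjusted p = 0.000633), the factor gene Foxo1 0.64 ± 0.21 log2 and CT13.2 ± 1.26 h (adjusted p = 0.0092), Fbp1 0.49 ± 0.08 log2 and CT15.8 ± 0.66 h (adjusted p = 0.0165) and the serine dehydratase gene Sds 1.30 ± 0.32 log2 and CT10.0 ± 0.95 h (adjusted p = 0.0363). Fbp1 lost its call without CT04 1 (adjusted p = 0.0603) and Sds without any of 8 libraries, CT08 a among them (up to 0.0962). Pck1, often taken as the marker of this pathway, was not called (range 2.19 log2, adjusted p = 0.0712).

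Genes that respond to fasting and glucocorticoids were called in 7 of 18 cases (38.9%), all 7 wide. Fkbp5, a chaperone partner of the glucocorticoid receptor, had a range of 2.15 ± 0.43 log2 with a peak at CT13.5 ± 0.76 h (adjusted p = 0.000187), and lay at 22.8, 18.1 and 53.6 CPM at CT04 and 226, 79.4 and 167 CPM at CT12, which do not overlap. Tsc22d3, a glucocorticoid target, had 1.85 ± 0.29 log2 and CT16.6 ± 0.59 h (adjusted p = 0.000785). Ddit4, an inhibitor of mTORC1, had 2.06 ± 0.41 log2 and CT17.6 ± 0.75 h (adjusted p = 0.0229), and Irs2, an adaptor of the insulin receptor, peaked on the other side of the day at CT1.4 ± 1.04 h (range 1.79 ± 0.49 log2, adjusted p = 0.0209). The call of Ddit4 was lost without CT04 2, CT08 b, CT16 3 or CT20 3 (adjusted p 0.0522 to 0.0617) and that of Irs2 without CT00 2 or CT12 2 (0.0715 and 0.066).

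The function with the largest share of called genes among lists of at least 10 genes, after the clock lists, was the heat shock response. Of 22 genes 19 were called (86.4%), 12 of them wide, and all 19 peaked between CT14.2 and CT19.8, 15 around CT16 and 4 around CT20. This count stayed at 19 without any single control library, without TMM, with DESeq2, with limma-voom, with a term for library kind and with the 18 control libraries alone. Hsph1, a co-chaperone of HSP70, lay, in CPM, at 27.8, 60.7 and 43.1 at CT00, 27.6, 20.7 and 24.97 at CT04, 34.6, 17.4 and 58.5 at CT08, 58.3, 59.95 and 76.1 at CT12, 149.9, 89.5 and 130.1 at CT16 and 94.4, 101 and 34.1 at CT20. The CT16 libraries, at 89.5 to 150 CPM, did not overlap those of CT00, CT04, CT08 or CT12, and at CT20 the female, at 34.1 CPM, lay far below both males. Its range was 2.12 ± 0.38 log2 with a peak at CT16.5 ± 0.68 h (adjusted p = 0.000252).

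Hspb1, a small heat shock protein gene, peaked last, at CT19.8 ± 0.77 h (range 1.96 ± 0.40 log2, adjusted p = 0.00195), and the inducible HSP70 gene Hspa1a (1.95 ± 0.43 log2, CT14.2 ± 0.84 h, 0.00855) first, with its copy Hspa1b (1.87 ± 0.44 log2, CT14.6 ± 0.90 h, 0.0106) close behind. The split of reads between these near-identical copies is uncertain. The HSP90 gene Hsp90aa1 had a range of 1.67 log2 with a peak at CT17.9 (adjusted p = 0.000201), and Hspa8, the constitutive HSP70 gene, 1.17 log2 and CT14.6 (adjusted p = 0.000569). Hsf1, the factor that drives these genes, was not called (range 0.21 log2, adjusted p = 0.322), nor were Hspa4 and Serpinh1 (adjusted p 0.37 and 0.79). Of the cold-inducible RNA-binding genes, which rise when body temperature falls, Cirbp peaked in the rest phase. It lay at 33.2, 35.3 and 18.8 CPM at CT04 and 11.4, 10.8 and 8.53 CPM at CT16, which do not overlap (range 1.15 ± 0.24 log2, peak CT4.8 ± 0.79 h, adjusted p = 0.00157), while its relative Rbm3 peaked at CT12.3 ± 0.65 h (range 0.74 ± 0.13 log2, adjusted p = 0.00147).

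Protein folding in the endoplasmic reticulum was less uniform, with 7 of 26 genes called (26.9%) and 5 of these peaking around CT20. Herpud1, a part of the degradation machinery, had a range of 1.41 ± 0.37 log2 with a peak at CT12.3 ± 1.00 h (adjusted p = 0.0024). The co-chaperone gene Dnajb9 (1.13 ± 0.43 log2, CT13.6 ± 1.46 h, 0.0343), the ligase gene Syvn1 (1.09 ± 0.33 log2, CT18.4 ± 1.16 h, 0.0178) and Creld2 (1.26 ± 0.52 log2, CT19.8 ± 1.58 h, 0.0465) were also called. Syvn1 lay at 224, 306 and 58.03 CPM at CT20, where the female was at the level of the other times. The calls of Dnajb9 and Creld2 were lost without any of 8 and 15 libraries (adjusted p up to 0.0941 and 0.183) and that of Syvn1 without CT08 b, CT16 1 or CT20 2 (0.0502 to 0.0732). The list's count was 4 without CT16 1 or CT20 2 and 16 without CT20 3.

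Methionine and one-carbon metabolism, the pathway whose nutrients the study's other diet lacks, had 5 of 19 genes called on the control diet (26.3%), 4 of them wide. Cbs, which takes homocysteine toward cysteine, lay, in CPM, at 473, 471 and 469 at CT00, 532, 558 and 489.6 at CT04, 382, 434 and 365 at CT08, 224, 214 and 225 at CT12, 218, 244 and 242 at CT16 and 401, 355 and 446 at CT20. The CT12 and CT16 libraries, at 214 to 244 CPM, did not overlap any other time. Its range was 1.30 ± 0.11 log2 with a peak at CT2.0 ± 0.33 h (adjusted p = 7.02e-09).

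Ahcy, which breaks down S-adenosylhomocysteine, had a range of 1.22 ± 0.26 log2 with a peak at CT16.0 ± 0.82 h (adjusted p = 0.00142) and Nnmt, a methyltransferase for nicotinamide, 1.66 ± 0.32 log2 and CT13.2 ± 0.74 h (adjusted p = 0.017). Nnmt lost its call without CT00 2 (adjusted p = 0.0502), and the list's count was 8 without CT08 a and 11 without CT08 3. The mean peak of the list's called genes was CT17.4 within the low kind of library and CT14.2 within the high kind. Among 22 genes of amino acid breakdown and the urea cycle 6 were called (27.3%), and their mean peak was CT16.5 within the low kind of library and CT11.0 within the high kind. Asl, which releases arginine in the urea cycle, lay, in CPM, at 333, 337 and 306 at CT00, 206, 259.6 and 273 at CT04, 282, 288 and 538 at CT08, 695, 612 and 699.9 at CT12, 760.0, 676 and 765 at CT16 and 501, 468 and 607 at CT20. The CT12 and CT16 libraries, at 612 to 765 CPM, were above all others (range 1.61 ± 0.14 log2, peak CT15.3 ± 0.32 h, adjusted p = 3.81e-07). Gpt, alanine transaminase (0.87 ± 0.14 log2, CT13.3 ± 0.62 h, 0.000679), peaked earlier in the evening. Hal, histidine ammonia-lyase, peaked in the rest phase (0.79 ± 0.16 log2, CT4.3 ± 0.79 h, 0.0122), and its call was lost without CT16 1 (adjusted p = 0.0506).

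Among nuclear receptors 7 of 18 genes were called (38.9%). Ppard, a receptor for fatty acids, lay, in CPM, at 78.5, 60.3 and 99.1 at CT00, 14.5, 16.99 and 12.5 at CT04, 11.2, 10.9 and 11.9 at CT08, 15.3, 13.3 and 16.1 at CT12, 43.3, 34.1 and 52.9 at CT16 and 73.2, 99.9 and 97.96 at CT20. The CT00 and CT20 libraries, at 60.3 to 99.9 CPM, did not overlap any other time (range 3.33 ± 0.23 log2, peak CT20.6 ± 0.27 h, adjusted p = 1.19e-11). Thra, a thyroid hormone receptor gene that overlaps Nr1d1 on the opposite strand and is uncertain for that reason, had 1.09 ± 0.12 log2 and CT0.2 ± 0.42 h (adjusted p = 1.02e-06). Esr1, an estrogen receptor gene, had 1.48 ± 0.25 log2 and CT14.0 ± 0.64 h (adjusted p = 0.00888), and Esrra 0.72 ± 0.16 log2 and CT14.2 ± 0.87 h (adjusted p = 0.00168). In the growth hormone axis 3 of 14 were called (21.4%, near the 17.8% of all genes), the signal transducers Stat5b (0.74 ± 0.17 log2, CT0.5 ± 0.85 h, 0.000295) and Stat5a (0.51 ± 0.14 log2, CT22.7 ± 1.08 h, 0.0188) and the binding protein gene Igfbp4 (0.73 ± 0.14 log2, CT11.5 ± 0.73 h, 0.00109). Stat5a lost its call without CT00 1 or CT12 3 (adjusted p 0.0565 and 0.0531). The mean peak of these 3 was CT20.6 within the low kind of library and CT2.6 within the high kind.

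Over all genes with a mean of at least 5 CPM, the 3 of widest range in each window were Npas2, Elovl3 and Loxl4 around CT00, Hectd2os, Depp1 and Fbxo21 around CT04, Dbp, Nr1d1 and Rgs16 around CT08, and Scd3, Ciart and Usp2 around CT12. Around CT16 they were Tsku, Gm19522 and Nat8f5, and around CT20 Arntl, Slc34a2 and Srgap3. Rgs16, a regulator of G protein signals, had a range of 3.56 ± 0.78 log2 with a peak at CT9.8 ± 0.84 h (adjusted p = 0.000593). Tsku, which encodes a secreted protein of liver, lay, in CPM, at 23.1, 54.5 and 32.2 at CT00, 10.3, 7.82 and 9.24 at CT04, 137, 24.4 and 148 at CT08, 241, 341 and 202 at CT12, 124, 136 and 171 at CT16 and 86.3, 73.3 and 68.9 at CT20. Its CT12 libraries were above all others and those of CT04 below all others (range 3.97 ± 0.63 log2, peak CT14.3 ± 0.61 h, adjusted p = 7.51e-07). Loxl4, a lysyl oxidase (3.80 ± 0.58 log2, CT0.0 ± 0.58 h, 1.02e-05), the transporter gene Slc34a2 (4.32 ± 0.93 log2, CT20.8 ± 0.82 h, 0.00818) and Srgap3 (3.40 ± 0.48 log2, CT21.7 ± 0.54 h, 7.66e-05) peaked between CT20 and CT02. The transcript Gm19522 (3.80 ± 0.64 log2, CT17.4 ± 0.64 h, 7.59e-05) peaked in the active phase. Slc34a2 has a library at 0, so its range depends on the prior count.

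Around CT04 lay Hectd2os (2.36 ± 0.53 log2, CT3.3 ± 0.85 h, 0.00749), an antisense RNA, Depp1 and Fbxo21 (2.01 ± 0.29 log2, CT6.0 ± 0.55 h, 0.000699), a ubiquitin ligase subunit. Some genes were lower in all females. Elovl3, an elongase of very long fatty acids, lay, in CPM, at 379, 753 and 4.75 at CT00, 376, 365 and 2.66 at CT04, 5.31, 71.9 and 1.65 at CT08, 19.4, 41.5 and 1.31 at CT12, 84.4, 180.0 and 1.06 at CT16 and 602, 543 and 4.24 at CT20. The 6 female libraries, at 1.06 to 4.75 CPM, were below the 12 male ones. With the sex term its range was 4.21 ± 0.78 log2 with a peak at CT22.8 ± 0.71 h (adjusted p = 0.0109). Nat8f5, of an acetyltransferase family, was at 0.43 CPM or less in all females and at 2.40 to 57.1 CPM in males, with a fitted peak at CT17.6 ± 0.61 h (adjusted p = 0.00904). Scd3, a desaturase with close paralogs, was at 0 in all libraries of CT00, CT04 and CT20 and in 2 of 3 at CT08. It lay at 44.1, 26.4 and 57.6 CPM at CT12 and 87.2, 43.3 and 111 CPM at CT16 (adjusted p = 0.0162, not called by DESeq2). Since reads of paralogs may have been split by the counting, no fold is given.

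The deeper of the CT08 columns was then left out. Without it 3522 genes were called, 3086 of them shared, and 525 calls were lost. Peak times moved little. Of the 3611 genes 3477 shifted by at most 1 h, none by over 2 h, and the median shift was 0.22 h in either direction. Among the genes named here, the call was lost by Btrc, Cyp8b1, Sds, Creld2, Ndufa8, Tfrc, Depp1, Klf6 and Mcm6. Among these, the replication helicase gene Mcm6 lay at 25.6, 3.33 and 6.37 CPM at CT08 and at 2.96 to 7.97 CPM in the 15 libraries of other times, with a range of 1.07 ± 0.44 log2 with and 0.51 log2 without CT08 a (adjusted p 0.0432 and 0.552). The factor gene Klf6, at 35.95, 9.63 and 13.2 CPM at CT08, went from 0.84 to 0.48 log2 (adjusted p 0.0467 and 0.276). Cyclin D1 (Ccnd1), at 218, 26.4 and 143 CPM at CT08, went from 2.06 to 1.49 log2 (adjusted p 0.00221 and 0.0204), and its call was lost without CT08 a when the remaining control libraries alone were fitted (0.0667). Its range was 3.71 log2 within the low kind of library and 0.69 log2 within the high kind (adjusted p 0.219 and 0.248).

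**Figure D4:**
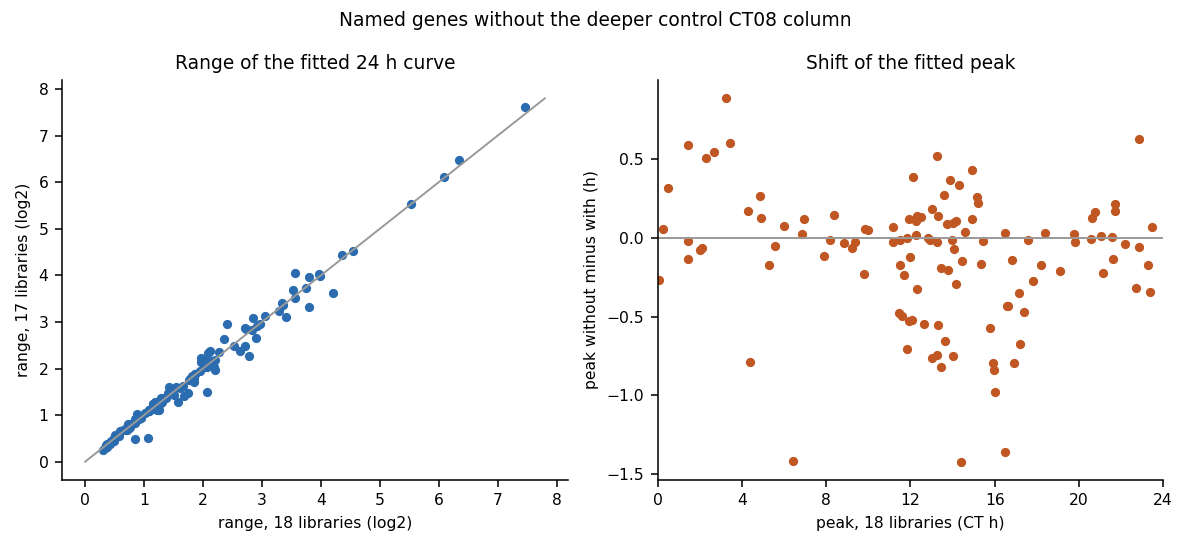
Called genes that the naming rule picks, fitted with all 18 control libraries and without the deeper CT08 column. The left panel sets the 2 ranges in log2 against each other with the line of equality, and the right panel gives the shift of the peak in hours against the peak with all libraries. Mcm6 and Klf6 lie farthest below the line at small ranges, and Sdhb, Cox5a and Klf6 shift earlier by over 1 h.

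Rhythms of males and females were compared in the 18 control libraries. The edgeR test of the difference in 24 h component called 0 of 18992 genes (0%), with 1509 at an unadjusted p under 0.05. Limma-voom also called 0 and DESeq2 194. Fitted apart, the curves of the 6 females peaked earlier than those of the 12 males in 2847 of the 3611 called genes (78.8%). Over all 3611 genes the median shift was -1.6 h (female minus male), and the female peak was over 1 h earlier in 61.6% and over 1 h later in 11.5%. The standard error of the difference for a single gene had a median of 1.72 h, larger than the size of that shift. Genes of 1 library share its mouse, so these counts carry no test. The median shift lay between -1.84 and -1.19 h without any single library and was -1.48 h without CT08 a. Of the 22 called clock genes 18 peaked earlier in females, with a median shift of -1.37 h.

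Arntl peaked at CT22.2 ± 0.55 h in males and CT20.4 ± 0.75 h in females, and its partner Clock at CT22.9 ± 0.46 h and CT20.6 ± 0.89 h. Per2 peaked at CT15.3 ± 0.30 h and CT12.0 ± 0.98 h. Nr1d1 peaked at CT7.08 ± 0.28 h and CT6.38 ± 0.44 h, a difference close to its error of 0.53 h. The adjusted p of the difference in rhythm was 0.457 or more for every clock gene, though 13 of the 22 had an unadjusted p under 0.05. The smallest adjusted p over all genes was that of Loxl4 (0.151), at a mean of 5.28 CPM in males and 13.1 CPM in females, with a peak at CT1.41 in males and CT22.1 in females. Rnf144a, a ubiquitin ligase (0.220, CT1.02 and CT21.3), and Ndrg1, a stress-responsive gene (0.220, CT2.23 and CT23.5), followed. With 1 female at each time, the females all carry the replicate number 3, so sex and this number cannot be told apart. The female library was of the high mt-Nd6 kind at CT00, CT08 and CT12 and of the low kind at CT04, CT16 and CT20.

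**Figure D5:**
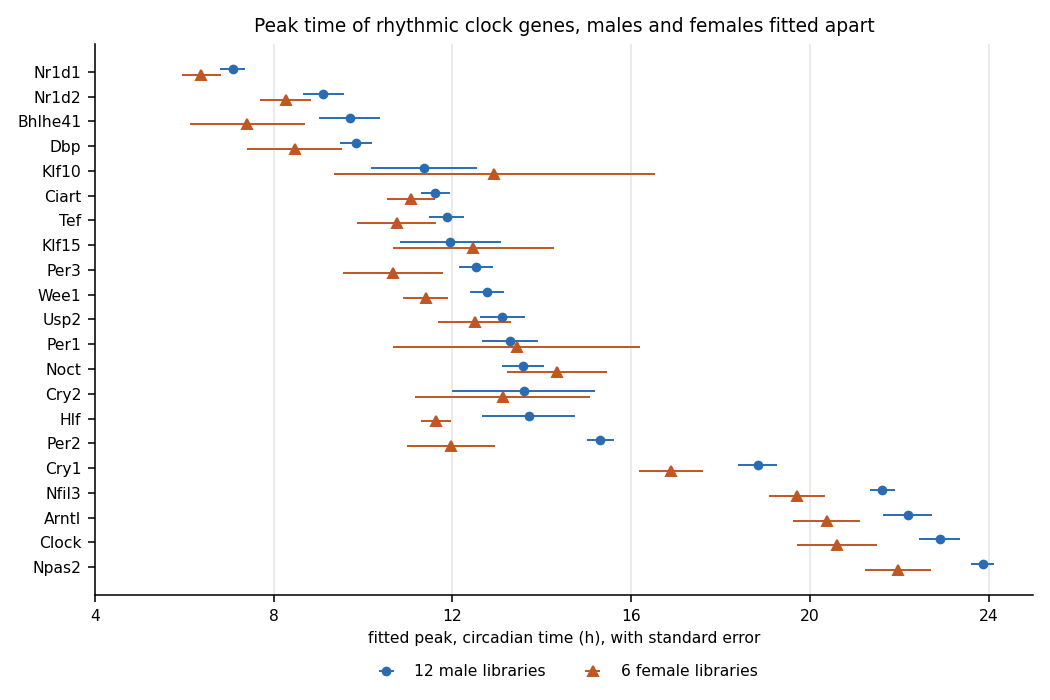
Fitted peak time in hours of 21 called clock genes in the 12 male libraries (blue circles) and the 6 female libraries (orange triangles), each with its standard error. In 17 of these genes the female point lies earlier, by 3.34 h in Per2, and the error bars overlap in several.

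The first promoter window listed for each of 12585 tested genes was searched for the same letters, together with a heat shock element pair (TTCNNGAA or GAANNTTC) and the element CRE (TGACGTCA). The E-box was in 9.57% of all these windows, in 11.7% of those of called genes and in 16.4% of those of called genes that peaked around CT12, where Per1 and Ciart lie. In the other windows of the day it was in 8.35% (CT00) to 12.6% (CT08). The D-box was in 2.27% of all windows and in 2.74% of those of called genes that peaked around CT12, with 1.3% (CT04) to 3.36% (CT16) around the other times. Among wide genes it was in 4.92% at any time, in 9.09% of the 110 around CT12 and in 1.57% (CT04) to 5.81% (CT16) around the others, and the E-box in 9.83%, 16.4% and 4.88% (CT08) to 11.4% (CT20). The heat shock element pair was in 12.1% of all windows, 12.1% of those of called genes and 14.4% of those of called genes that peaked around CT16, with 10.6% (CT12) to 13.0% (CT20) around the other times. Among wide genes it was in 12.3% at any time, in 20.9% of the 86 around CT16 and in 7.27% (CT12) to 14% (CT20) around the others. The E'-box was in 5.25% of all windows, the REV-ERB/ROR element in 5.36% and the CRE in 2.93%. Among wide genes at any time these shares were 6.14%, 5.99% and 3.07%. Around single times, wide genes had the E'-box in 3.94% (CT04) to 11.6% (CT16). They had the REV-ERB/ROR element in 1.82% (CT12) to 8.77% (CT20) and the CRE in 0% (CT16) to 6.14% (CT20). All these shares are descriptions, and no test of them was made.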

How the data were processed

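Gene counts of 36 liver libraries were used as the authors deposited them in a table of liver libraries, with 22823 genes listed. The submitters' processing notes name Trimmomatic, HISAT2, StringTie, DESeq2 and build GRCm39, with no role. Per the labels' protocols a stranded mRNA kit was used; the counting's strand setting was not given in the sources used here. The 43 of 127 named genes that overlap a gene on the other strand are therefore less certain. Each column was matched to its sample by name, except the 2 control CT08 columns of the same name.

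Genes with low counts were removed with filterByExpr (minimum count 10). edgeR 4.0.16 in R 4.3.3 fitted all 36 libraries with TMM factors, a sex term and a free mean for each diet and time. The means were written as a 24 h cosine and sine and faster terms, and the control diet's 24 h terms were tested together. Departures of the time means from a 24 h curve therefore do not enter the spread of this test. Range and peak came from a cosinor fit on log2 CPM (prior count 2) over the 18 control libraries with a sex term, and the errors are its standard errors. Single-library CPM use TMM-scaled library sizes. The mice are separate by the series' design text. Males and females were also fitted apart. Alternatives were limma-voom (limma 3.58.1), DESeq2 1.42.0, other scalings, filters and designs, and leaving out libraries.

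The members and lists were chosen with earlier results of these data known. Genes named with values are all genes of the 3 clock lists, up to 4 called genes of widest range in each other list (mean of at least 1 CPM), the 3 of widest range per 4 h window (mean of at least 5 CPM) and the 3 of smallest p for the sex difference. Other genes named, such as Abcb11, Hsd3b7, Gys2, Ppara, Hspa8, Hsp90aa1, Hsf1, Pck1, Alb and Sox9, were chosen after their values were seen. No row was found for 6 list genes, which were not analysed here, and some genes that the rule picks are not reported here.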

Additional observations from a re-analysis of the deposited data

How the results depend on the processing

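The count of 3611 rhythmic genes, 979 of them wide, lay at 2863 to 3957 and 849 to 1109 without any single control library. It was 3469 and 966 with no filter, 3333 and 894 with the 18 control libraries alone, 3326 and 884 with the cosinor design, 3131 and 876 with no sex term, 3278 and 929 with limma-voom and 4558 and 1217 with DESeq2. A test of any difference among the 6 times called 2284. Within libraries of low mt-Nd6 the counts were 0 and 0, and within those of high mt-Nd6 1611 and 604. Leaving out all liver libraries of 1 replicate number, on both diets and with the unnumbered CT08 columns kept, gave 565 to 2889 and 299 to 1038. These settings use fewer libraries. With the replicate number as a block, without the unnumbered CT08 columns, 2569 and 755 genes were called, against 2696 and 774 in the same libraries with no block. The fit with no block was chosen after seeing the data, as were those that combine 2 choices and those of the peak by sex. The correlation of deviations between libraries of the same number ran from -0.20 to 0.31 for number 1, 0.08 to 0.30 for number 2 and 0.10 to 0.56 for number 3, whose libraries are the females. Since not all pairs exceeded 0.1, the numbers were not taken as pairs.

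The difference between the sexes, 0 genes with edgeR, was 194 with DESeq2, 1 without the deeper CT08 column and 0 to 2 without any single library, with 2 without CT00 1. The cause was not tested. Of 127 named genes 124 were called and 96 kept the call without any single library. DESeq2 ended the call of Scd3 alone, limma-voom those of 9 named genes, the 18 control libraries alone those of 11, the cosinor design on them those of 15 (Cry2, Cyp7a1, Irs2, Nolc1, Pnpla3 and Depp1 among them), no sex term those of 14 and the test of any difference those of 26, Hmgcs1, Hlf and Pmvk among them. Creld2 turned within the low kind, with a range of 0.29 log2 (adjusted p = 0.879) and a peak at 3.377 h. Totals were 52.6 M counts or more, and values near 0 CPM, such as those of Npas2 and Scd3 at their troughs, rest on few or no counts.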

Other observations

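Of 26 subunits of the respiratory chain 4 were called (15.4%, against 17.8% of all genes), none of them wide and all with a peak around CT16. Cyc1, a subunit of complex III, had a range of 0.43 ± 0.09 log2 with a peak at CT16.0 ± 0.80 h (edgeR adjusted p = 0.00804), and Ndufa8, Sdhb and Cox5a had ranges of 0.37, 0.35 and 0.30 log2. These last 3 calls were lost without any of 10, 7 and 12 libraries. The list's count was 14 without CT08 3, 13 with DESeq2, 7 with library totals alone, 6 without CT08 a, 2 without CT00 3, CT04 2, CT04 3, CT12 1, CT16 2, CT20 1 or CT20 2 and 1 without CT04 1, CT16 1 or CT16 3.

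In iron and heme handling 5 of 14 genes were called, or 35.7% against 17.8% of all genes. Values in parentheses after a gene are its range, peak and edgeR adjusted p. The metal importer Slc39a14 (0.59 ± 0.18 log2, CT11.9 ± 1.14 h, 0.00328) and the ferrireductase Steap4 (0.70 ± 0.20 log2, CT11.9 ± 1.08 h, 0.0145) peaked together, and Aco1, the iron regulatory protein, later (0.49 ± 0.09 log2, CT15.9 ± 0.70 h, 0.00707). Slc39a14 kept its call whichever control library was left out, but its range then fell to as low as 0.37 log2. Steap4 lost its call without CT12 1 (0.0725), and the transferrin receptor gene Tfrc (1.16 ± 0.43 log2, 0.0483) without any of 12 libraries (up to 0.15). In autophagy 4 of 17 were called (23.5%), the mitophagy receptor Bnip3 (1.29 ± 0.20 log2, CT12.6 ± 0.58 h, 6.03e-05), Gabarapl1 (1.01 ± 0.18 log2, CT4.9 ± 0.67 h, 0.00048), Depp1 (2.04 ± 0.74 log2, CT2.1 ± 1.39 h, 0.0476) and the lysosomal factor Tfeb (0.44 ± 0.13 log2, CT14.0 ± 1.10 h, 0.0356), the last 2 lost without any of 16 and 8 libraries (up to 0.115 and 0.122). Among immediate early genes 4 of 13 were called (30.8%), among them Junb (1.505 ± 0.36 log2, CT5.3 ± 0.92 h, 0.0013) and Myc (2.20 ± 0.74 log2, CT13.0 ± 1.28 h, 0.00829). Myc lay at 37.2, 28.7 and 19.9 CPM at CT12, and single libraries at CT16 and CT20 reached 26.1 and 16.5 CPM. In the cell cycle list 5 of 16 were called (31.2%). Gadd45a (1.86 ± 0.48 log2, CT11.2 ± 0.98 h, 0.0307) and Ccne2 (0.95 ± 0.19 log2, CT12.3 ± 0.77 h, 0.0287) lost their calls without any of 6 and 5 libraries (up to 0.0848 and 0.094). Counts moved by over 1.5 times with other settings. With limma-voom 2 genes each were called in the last 3 lists, and with library totals or the 18 control libraries alone 3 in iron and heme. For iron and heme the count was 2 or 3 without CT00 1, CT00 2, CT04 2, CT04 3, CT12 1, CT16 1, CT16 3, CT20 1 or CT20 2. For autophagy it was 2 without CT00 1, CT00 3, CT04 1, CT04 2, CT12 1, CT12 2 or CT16 3, and for immediate early genes 2 without CT00 1, CT00 2, CT08 a, CT12 1, CT12 3, CT20 2 or CT20 3. For the cell cycle it was 2 or 3 without CT00 1, CT00 2, CT00 3, CT04 1, CT12 1, CT12 2, CT12 3 or CT20 3.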
